A study of Homo sapiens with 35 samples.

Results

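Chromosome 15 is an acrocentric human chromosome, whose short arm is mostly repeats and whose protein-coding genes lie almost all on the long arm. Its contacts with the nuclear lamina were measured cell by cell in KBM7, a line from a human chronic myeloid leukaemia, of which clone 5-5, labelled 2N (diploid), was used. The measured bins are the 100-kb bins given as chr15 that hold a value in every cell. They number 520 of the 26584 such bins in the table, or 1.96%, and fall into a proximal part of 394 bins (hg19 20000001 to 61000000) and a distal part of 126 bins (89900001 to 102500000) that stops 1 bin short of the end of the chromosome. That bin, the 289 bins between the parts, 200 bins before the proximal part and 16 bins inside it hold no value and were not analysed here. KBM7 is known to carry a further copy of a piece of the long arm of chromosome 15 inserted in chromosome 19, and the sources used here do not say whether the stretch without values is that piece.

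All cells belong to 1 group, with no untreated cells and no second condition. Every cell expressed a fusion of the Dam methylase to lamin B1, was treated with 0.5 nM Shield1 for 15 h to switch on methylation, and was sorted from the smallest 2% of the cells that carried both Fucci reporters of the cell cycle. The clone is 1 line, so the cells show how cells of this clone vary and not how clones or donors vary. Of 35 labelled samples, 32 match a column. Whole reads recovered from the values came to 985 to 258225 per cell with a median of 120164, and cells 13, 15 and 17 (985, 1221 and 1755 reads) stand apart from the other 29 (40279 reads or more). In those 3 shallow cells 1 read gives a median OE of 13.4 to 24.6, so on chromosome 15 each bin with a read counts as a contact, and the main comparisons are given with and without them.

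The lamina is a mesh of intermediate filament proteins on the inner face of the nuclear envelope. Long gene-poor stretches of chromatin, called lamina-associated domains, touch it, and chromatin there is mostly inactive. In DamID, DNA that comes near the Dam fusion is methylated on the adenine of GATC, and methylated fragments are amplified and sequenced. The OE of a bin is the ratio of its observed to its expected reads in a cell. A bin was called in contact where its OE was 1 or more, the contact share of a cell is the percentage of a region's bins that are in contact. A bin's contact frequency is the percentage of cells that have it in contact. Because the clone is diploid, a contact can come from either of the 2 copies of chromosome 15 and from any time in the 15 h. The proximal long arm of chromosome 15 is known for the imprinted Prader-Willi and Angelman region and a cluster of GABA-A receptor genes. No gene was placed in a bin, because the annotation given is on GRCh38 and the bins are on hg19.

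The proximal part touched the lamina less than the distal part. In the proximal part the contact share of a cell ran from 0.761% to 41.4% with a median of 18.4%, against 3.97% to 50.0% with a median of 25.4% in the distal part. The ranges overlap widely, and the order holds within most cells but not in all. The means were 17.4% ± 10.3 in the proximal part and 24.7% ± 13.1 in the distal part (SD, n = 32 cells), a within-cell difference of -7.20 percentage points ± 12.6 (SD). The proximal share was the lower in 23 of 32 cells (two-sided sign-flip permutation test, p = 0.00344, adjusted p = 0.00516 over 6 comparisons of shares). Without the 3 shallow cells the difference was -7.70 points, with the proximal share lower in 20 of 29 cells (adjusted p = 0.00669).

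The mean OE, which uses no contact limit, pointed the same way but held less firmly. It was 0.630 ± 0.308 in the proximal part and 0.823 ± 0.381 in the distal part (SD, n = 32), a difference of -0.192 ± 0.461, lower in the proximal part in 22 of 32 cells (sign-flip permutation test, adjusted p = 0.0372 over 3 comparisons). Without the shallow cells the difference was -0.177 and did not pass (adjusted p = 0.0573). Nor did it pass without bins at 0 in every cell (-0.156, adjusted p = 0.0731). It passed more clearly without the 10% of bins of lowest expected reads (-0.295, adjusted p = 0.00184). Taken as the mean of log2(OE + 0.1), the difference was -0.442 (adjusted p = 0.000495, same test).

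Set against the other measured chromosomes of the same cell, the proximal part was poor in contacts, and at an OE limit of 1 the distal part was not separated from them. The other chromosomes had 26.5% ± 8.11 of 26064 bins in contact. Chromosome 8 is not among them here or below, because none of its bins was used. The proximal share was below that (difference -9.02 points ± 9.24, SD, lower in 28 of 32 cells, sign-flip permutation test, adjusted p = 6e-05). The distal share differed from it by -1.81 points ± 10.2, higher in 18 cells and lower in 14 (adjusted p = 0.389), and single cells ranged from -24.9 to 18.7 points. This outcome depends on the contact limit, since the distal part passed below the other chromosomes with an OE limit of 2 (-3.28 points, adjusted p = 0.0468) and above them with any read counted (3.45 points, adjusted p = 0.0485). Without the shallow cells the proximal difference was -9.80 points (adjusted p = 9e-05) and the distal one -2.10 points (adjusted p = 0.358).

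**Figure D1:**
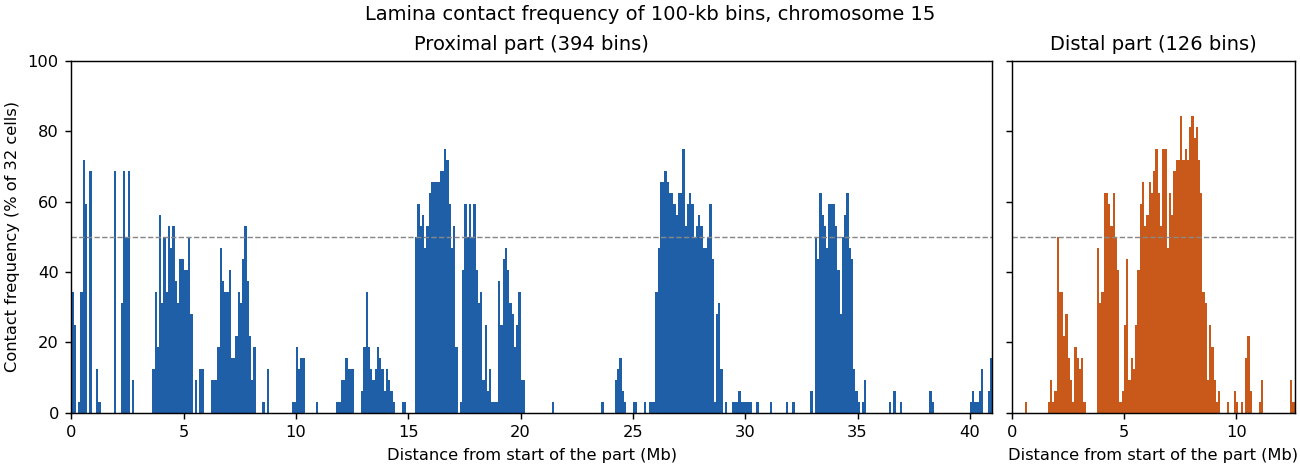
Contact frequency of each 100-kb bin (percentage of the 32 cells with an OE of 1 or more) against distance from the start of the proximal part (left, 394 bins) and of the distal part (right, 126 bins), with a dashed line at 50%. Contacts fall into blocks of high frequency, with both near-empty stretches and bins of lower frequency between them, and with all 32 cells 4 bins pass 80%, all in the distal part.

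Bins were also sorted by contact frequency, as a description. In the proximal part 163 bins (41.4%) were in contact in no cell, 109 in under 20% of cells, 122 in 20 to 80% and none in 80% or more. In the distal part these counts were 42 (33.3%), 33, 47 and 4. The extremes depend on the cells and the limit. Without the shallow cells 2 proximal and 6 distal bins reached 80%, and with any read counted 30 and 28 did, while 25 and 1 were never in contact. On the other chromosomes 42.1% of bins were never in contact and 8.58% reached 80%, over all 32 cells at an OE limit of 1. Without the shallow cells 3766 of their 26064 bins reached 80%. Their counts with any read counted are not given. A count of 0 in 32 cells allows a contact frequency of up to 9.38% (an approximate 95% limit, taken as 3 over 32, counting error only). This limit counts the 3 shallow cells like the others.

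From the contact shares of the cells, 8.42 cells are expected to have a given bin in contact. Each bin was tested against this with the exact Poisson-binomial test (two-sided, adjusted over all 26584 bins). In the proximal part 76 bins (19.3%) were called above that number and 237 (60.2%) below it. In the distal part 36 bins (28.6%) were called above and 66 (52.4%) below. Of all used bins, 30.3% were called above and 54.5% below, so the distal part lay close to this background, while the proximal part held fewer bins above it and more below it. Without the shallow cells the counts above were 82 proximal and 37 distal bins. The share of all bins called is not given for that set of cells, so these counts have no background beside them.

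All of the named proximal stretches lay in 3 blocks. Outside them, contacts were found in a looser zone near the start, where the highest bin had a frequency of 71.9%. Contacts of lower frequency lay at 39000001 to 40000000, where the mean frequency was 33.1% and the highest 46.9%. The first block, at about 35 to 38 Mb, held 3 of the named stretches, the longest runs of neighbouring bins at or over a frequency of 50%, given as a description. The grouping into blocks was made after the profile was seen. Its main stretch, chr15:35800001-36900000 (11 bins), had a mean contact frequency of 65.6%. Its OE in the 29 deeper cells ran from 0.0420 to 5.79 with a median of 1.83, and 21 of these cells had most of its bins, at least 50%, in contact. The shorter stretches on either side, chr15:35300001-35700000 and chr15:37500001-38000000, had frequencies of 54.7% and 55.6%. In the stretch before the main one, 8 of 29 cells had no bin in contact while 13 had all of its bins in contact. In the stretch after it these numbers were 6 and 12.

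The second block held the longest named stretch of the chromosome, chr15:46200001-48100000, with 19 bins and a mean contact frequency of 60.7%. Its OE in the deeper cells had a lowest value of 0.0329, a median of 1.99 and a highest value of 5.46, and its mean was 2.00 ± 1.36 (SD, n = 29). In 20 cells at least 50% of its bins were in contact, in 10 cells all of them were, and in 1 cell none. The bins within 0.5 Mb on each side had a contact frequency of 33.8%. They differ in shape, since a border at position 46000001 had 49.0% on its distal side and 3.13% on its proximal side, while frequencies beyond the other edge stayed at 43.8 to 59.4% up to position 48600000.

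The third block, at about 53 to 55 Mb, was the shortest. Its named stretch, chr15:53700001-54100000 (4 bins), was in contact in 57.8% of cells on average. Its mean OE was 1.63 ± 1.23 (SD), with a lowest value of 0.0580 and a highest of 4.90, in the 29 deeper cells. Its borders were among the steepest on the chromosome. At position 53100001 the mean frequency of 3 adjacent bins was 52.1% on the distal side and 2.08% on the proximal side, and at 54800001 it was 7.29% on the distal side and 51.0% on the proximal side. The steepest border lay at the start of the first block, position 35300001, with 54.2% on its distal side and 0% on its proximal side.

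The named distal stretches lay in 1 dense block with a smaller one before it. Contacts were also found before these, at 91900001 to 92900000, with a mean frequency of 23.1% and a highest of 50.0%. At 92900001 to 93900000 the mean was 10.9% and the highest 46.9%. The stretches chr15:95600001-96800000 (12 bins) and chr15:96900001-98400000 (15 bins) are parted by a single bin under 50% and had mean contact frequencies of 64.3% and 72.9%. The OE of the second ran from 0.344 to 6.25 with a median of 2.69 in the deeper cells, and each of the 29 cells had a contact in it. In 24 of them at least 50% of its bins were in contact. The smaller stretch, chr15:94000001-94600000 (6 bins), had a frequency of 58.3%, with 5 cells without any contact and 10 with all of its bins in contact.

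The highest contact frequencies of the chromosome were found in that dense block. The bins chr15:97400001-97500000 and chr15:97900001-98000000 were each in contact in 27 of 32 cells (84.4%, 95% Clopper-Pearson interval 67.2 to 94.7%). In the proximal part the highest were chr15:36600001-36700000 and chr15:47200001-47300000, in contact in 24 cells each (75.0%, interval 56.6 to 88.5%). These bins were picked as the highest of their part, so their frequencies and intervals lean high and no test was made between them. The intervals also count the 3 shallow cells like the others.

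Contacts at the very start of the proximal part rest on few reads. In its first 3 Mb (18 bins, 20000001 to 23000000) the expected reads of a bin had a median of 0.121 times that of all used bins, and 1 read gave a median OE of 1.06 in the deeper cells, against 0.151 in the rest of the proximal part. The contact share there was 33.9% ± 20.3, against 16.7% ± 10.1 in the other 376 bins (SD, n = 32). A contact there had a median of 4 reads, against 12 in the rest, so these bins pass the limit on far less evidence. A border lay inside this zone at position 20400001, with 55.2% on its distal side and 9.38% on its proximal side. The bins chr15:20500001-20600000 and chr15:21900001-22000000, in contact in 71.9% and 68.8% of cells, are of this kind.

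The proximal part held 35 stretches without a contact in any cell, with a median length of 0.3 Mb, and 6 of them reached 1 Mb. The longest, chr15:41500001-43600000 (21 bins), held 72 reads over all 32 cells, whereas the 19 bins of the block at 46200001 to 48100000 held 7018. Its mean OE was 0.0200 ± 0.0323 (SD, n = 32). It lies with chr15:40200001-41400000 (12 bins, 39 reads) between the first and second blocks. Beyond the third block, chr15:57000001-58200000 and chr15:58400001-60000000 had no contact over 12 and 16 bins, with mean OE values of 0.0453 and 0.0331. The last of those named, chr15:28800001-29800000 (10 bins), lies between the looser zone and the first block.

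The distal part, with 126 bins against 394 in the proximal part, had 9 such stretches, of which 1 reached 1 Mb. They lay at its start and its end among other places. The bins at chr15:89900001-90500000 and chr15:90600001-91500000 had no contact and 20 and 26 reads over all cells. Near the end of the chromosome, chr15:101100001-102300000 (12 bins) had no contact and a mean OE of 0.0401 ± 0.0458.

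Cut by position alone into segments of about 10 Mb, the proximal part was poorest in contacts beside the long stretch without values. The shares were 21.8% ± 16.0 at 20000001 to 30000000, 23.7% ± 16.2 at 30000001 to 40000000, 16.7% ± 10.7 at 40000001 to 50000000 and 9.20% ± 6.29 at 50000001 to 61000000 (SD, n = 32). The last of these lay below the other chromosomes in 32 of 32 cells, with a mean difference of -17.3 points (± 7.88, sign-flip permutation test, adjusted p = 3e-05 over 6 segments). The segment at 40000001 to 50000000 lay below them in 28 of 32 cells (-9.75 ± 8.67, adjusted p = 3e-05). The first and second segments were not separated from the other chromosomes (-4.70 points, adjusted p = 0.14, and -2.77 points, adjusted p = 0.347). Without the 10% of bins of lowest expected reads the first segment did pass, at -10.7 points (adjusted p = 0.00232), and it also passed after thinning each deeper cell to 40279 reads and with an OE limit of 2.

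The distal part was split at its middle. Its first segment (89900001 to 96200000) had a share of 21.2% ± 14.3, below the other chromosomes by a small margin (-5.28 points ± 12.3, lower in 22 of 32 cells, adjusted p = 0.0418). That call was lost under 5 of 9 alternatives, over which the adjusted p ran between 8e-05 and 0.435. The second segment (96200001 to 102500000) had a share of 28.1% ± 13.8 and was not separated from them (1.66 points, adjusted p = 0.371). With the shallow cells left out, each of the 6 segments kept its direction and its side of the threshold, with -18.9 points for the lowest proximal segment (adjusted p = 3e-05) and -5.85 points for the first distal one (adjusted p = 0.0398).

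**Figure D2:**
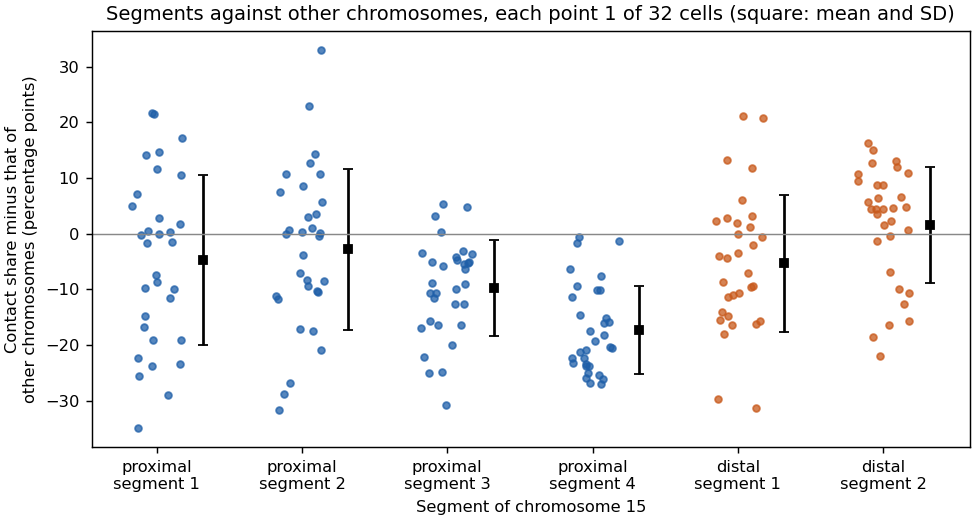
Contact share of each segment of chromosome 15 minus that of the other measured chromosomes in the same cell, in percentage points (1 point per cell, 32 cells; squares and bars give the mean and SD). The proximal segment nearest the stretch without values lies below 0 in all 32 cells, at a mean of -17.3 points, while the first and second segments and both distal segments spread over both sides of 0.

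The long arms of chromosomes 13 and 14, also acrocentric, gave a mixed picture. Chromosome 21, acrocentric as well, has 356 used bins and was not compared in this way. Over the first 41 Mb of measured long arm, chromosome 13 had a share of 17.9% ± 7.40 and chromosome 14 of 33.8% ± 17.2 (SD, n = 32). The proximal part of chromosome 15 was not separated from chromosome 13 (difference -0.424 points ± 10.2, lower in 14 cells and higher in 18, sign-flip permutation test, adjusted p = 0.815). It lay below chromosome 14 (-16.4 points ± 15.6, lower in 29 of 32 cells, adjusted p = 6e-05). Over the 29 deeper cells these differences were -0.540 points (adjusted p = 0.786) and -18.0 points (adjusted p = 6e-05).

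The distal part had more contacts than the same length of long arm at the pooled ends of other chromosomes. Its share of 24.7% compares with 16.2% ± 5.40 in the last 12.6 Mb of 19 other chromosomes, a difference of 8.46 points ± 9.78, higher on chromosome 15 in 25 of 32 cells (sign-flip permutation test, adjusted p = 0.00012). In the 29 deeper cells it was 9.10 points (adjusted p = 0.00012). Single ends differed far more than this, from 43.0% ± 17.1 on chromosome 18 and 40.8% ± 16.1 on chromosome 4 to 0.347% on chromosome 19 and 0.223% on chromosome 2. The end of chromosome 15 stood below 6 and above 13 of them. Its neighbours in that order were chromosome 13 (31.1% ± 13.7) and chromosome 6 (22.7% ± 10.1). Within cells, the end of chromosome 15 was higher than that of chromosome 13 in 7 of 32 cells. It was higher than that of chromosome 6 in 20, with 1 cell equal in each comparison. No test was made between single ends.

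**Figure D3:**
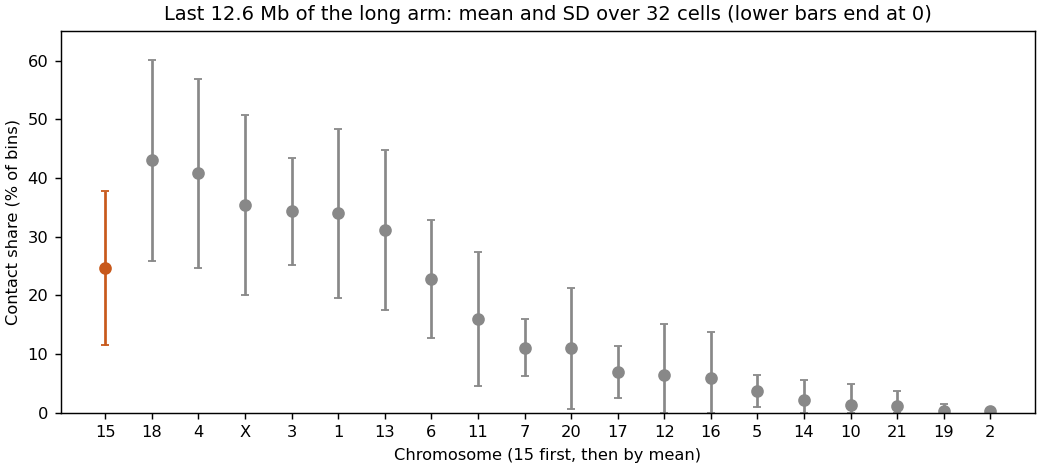
Contact share of the last 12.6 Mb of the long arm, in percent of 126 bins, for chromosome 15 (24.7%) and then 19 other chromosomes by falling mean. Points are means and bars SD over 32 cells, with lower bars stopped at 0, and 6 of the other ends lie above chromosome 15.

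Within the distal part the contacts kept away from the end itself. The zones were set after the profile of chromosome 15 was seen, which favours a difference from other ends, and they are given without a test. In the last 3 Mb the share was 2.81% ± 3.98, and the other 19 ends had 3.90% ± 2.25 over the same distance. Chromosome 15 was the higher there in 10 of 32 cells. At 3 to 9 Mb from the end it was 45.6% ± 23.6, against 16.7% ± 5.73 at the other ends, and higher on chromosome 15 in 30 of 32 cells. Beyond 9 Mb from the end it was 7.99% ± 9.49, against 25.5% ± 8.50, and higher on chromosome 15 in 1 of 32 cells.

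Cells differed strongly in how much of each part touched the lamina. Cell 28 had 163 of 394 proximal bins and 51 of 126 distal bins in contact (41.4% and 40.5%), and cell 9 had 125 and 63 (31.7% and 50.0%). At the other end, cell 32 had 3 proximal bins in contact but 29 distal ones (0.761% and 23.0%), and cell 8 had 15 and 37 (3.81% and 29.4%). The reverse was seen in cell 30, with 113 proximal and 12 distal bins (28.7% and 9.52%), and in cell 34, with 115 and 15 (29.2% and 11.9%).

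Low shares were not limited to the cells of fewest reads. Cell 32 had 129472 reads and cell 8 had 225564, but their proximal parts held 121 and 312 reads, at a mean OE of 0.0622 and 0.122. Cell 29, with 196835 reads, was low in both parts, with 39 proximal and 8 distal bins in contact. Cell 25, among the shallower of the 29 deeper cells with 79421 reads, had 26 and 8. Among the 29 deeper cells, Pearson's r with log10 reads was 0.169 for the proximal share (Spearman's rho 0.188) and 0.492 for the distal share (rho 0.563), given as a description.

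**Figure D4:**
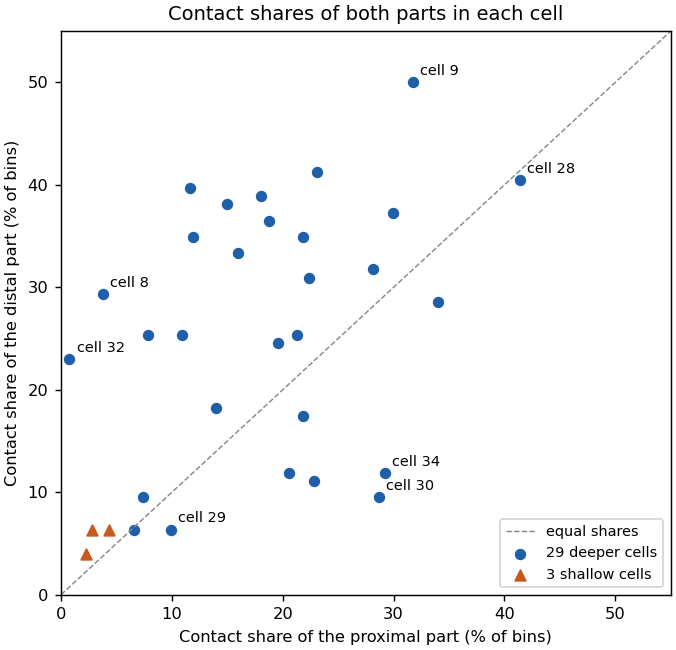
Contact share of the distal part against that of the proximal part in each cell, in percent of bins, with the 29 deeper cells as circles, the 3 shallow cells as triangles and a dashed line of equal shares. Cells lie on both sides of the line, with cells 8 and 32 low in the proximal part alone and cells 30 and 34 low in the distal part relative to the proximal part.

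The parts moved with each other over cells only weakly. Pearson's r between the proximal and the distal share was 0.444 over all 32 cells (rho 0.467) and 0.292 over the 29 deeper cells (rho 0.311). Leaving out the 2 of these cells with the most extreme proximal shares gave 0.220. With the share of the other chromosomes of the same cell taken off both, r was 0.148 (29 cells). These values share the depth of the cell and are given as a description. Segments within a part went together more closely, with r of 0.600 to 0.686 between neighbouring proximal segments and 0.692 between the distal segments (29 cells each). Between proximal and distal segments r ran from 0.0502 to 0.358.

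The same held for single bins of intermediate contact frequency (20 to 80%). Over the 29 deeper cells the mean correlation of contacts was 0.251 for pairs of bins within the proximal part, 0.294 within the distal part and 0.0471 between the parts, and it was 0.0396 between chromosome 15 and other chromosomes. By distance, pairs on chromosome 15 had 0.455 up to 1 Mb, 0.287 at 1 to 5 Mb, 0.217 at 5 to 20 Mb, 0.142 at 20 to 50 Mb and 0.0289 beyond 50 Mb. On the other chromosomes the values were 0.387, 0.219, 0.136, 0.0978 and 0.0687. All pairs share the same cells and neighbouring bins are not independent, so no test was made. With the 3 shallow cells included, all pairs correlate more, with 0.121 between the parts and 0.127 with other chromosomes.

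Blocks were met in combination or alone. In the 29 deeper cells, the stretches at 46200001 to 48100000 and 53700001 to 54100000 were both in contact over at least 50% of their bins in 18 cells, neither in 7, and only 1 of them in 4 (r = 0.703 over their shares). The adjoining distal stretches were both in contact in 19 cells and neither in 5, and the longer one alone in 5, while the shorter one was never in contact alone (r = 0.758). Across the unmeasured stretch, the block at 35800001 to 36900000 and the one at 96900001 to 98400000 were both in contact in 17 cells, the first alone in 4, the second alone in 7 and neither in 1 (r = 0.105).

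**Figure D5:**
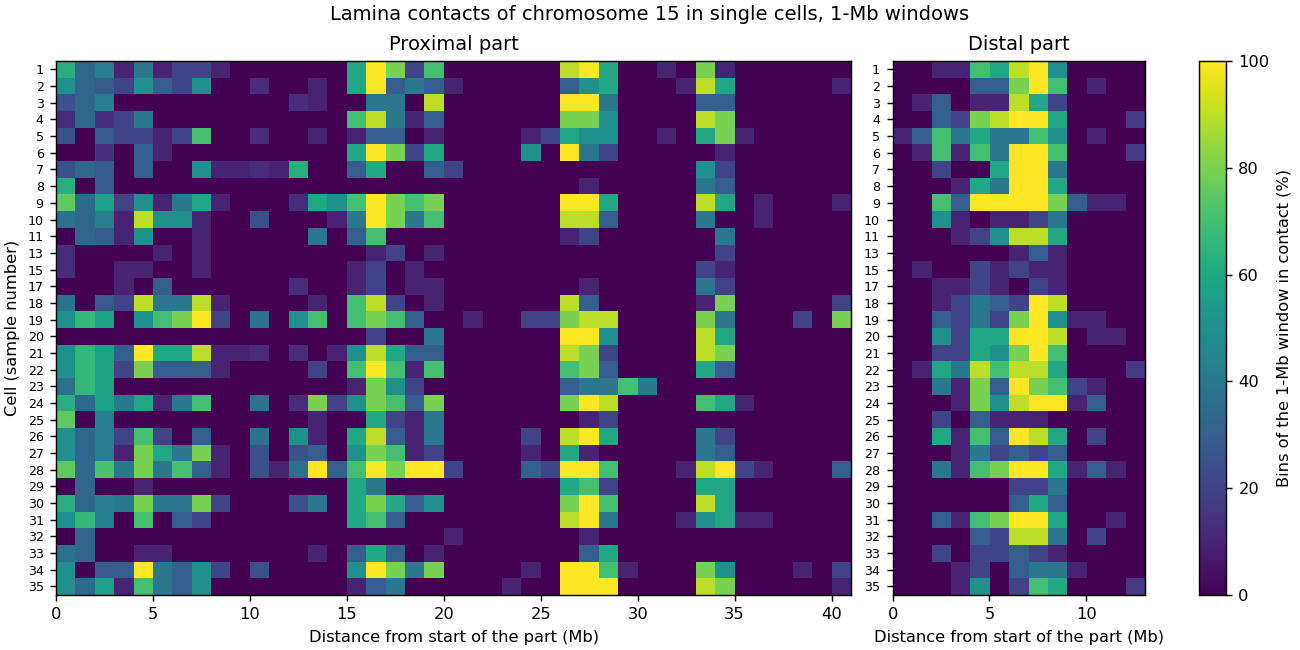
Percentage of bins in contact in each 1-Mb window (colour, 0 to 100%) of the proximal part (left) and the distal part (right) in each of the 32 cells (rows, by sample number), against distance from the start of the part in Mb. The blocks are filled in some cells and empty in others, cell 32 is nearly empty in the proximal part but not in the distal part, and cells 13, 15 and 17 are the shallow ones.

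Chromosome 15 was among the chromosomes whose share varied most from cell to cell. Its share minus that of the other measured chromosomes had an SD of 7.90 points over the 29 deeper cells. Of 22 chromosomes, only 21 (9.38), 14 (8.24) and 18 (7.93) had a larger one. Chromosome 1 had the smallest, at 3.50. This is a description, since an SD also depends on the number of bins (520 here, 2255 on chromosome 1) and on the mean share. By the SD of the share over its mean, chromosome 15 had rank 6 of 22 (0.417).

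Runs of contacts had widely overlapping lengths in the proximal and distal parts, and no test was made of them. The mean run of adjacent bins in contact was 320 kb ± 139 in the proximal part and 427 kb ± 247 in the distal part (SD, 29 deeper cells). The longest run of a cell was 0.1 to 3 Mb in the proximal part with a median of 1.7 Mb, and 0.2 to 4.4 Mb in the distal part with a median of 1.4 Mb. Cell 9 had the longest run, 4.4 Mb in the distal part. Runs of at least 1 Mb were absent from the proximal part in 9 of the 29 cells and from the distal part in 10. The parts are not of equal length, at 41 and 12.6 Mb, so these numbers and the longest runs are not compared per Mb. A run also ended at any of the 16 bins without values inside the proximal part, and the distal part has 0 such bins. A run can combine contacts of both copies of the chromosome.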

How the data were processed

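The deposited values are ratios of observed to expected reads (OE), per the file headers, in 100-kb bins of single cells. Per the submitters' processing notes, cutadapt and Bowtie2 2.1.0 were used on hg19. Positions are 1-based. The making of the expectation and the filtering of reads are, in the sources used here, not given. Columns were matched to samples by number, and samples 12, 14 and 16 were not analysed here. None of the 496 pairs of cells held identical values (highest Pearson's r 0.728).

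Within each bin, values are whole multiples of the value of 1 read, and reads were recovered from these steps (tolerance 0.01 reads). PCR reads are not independent molecules, and intervals cover counting error only.

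Differences were taken within a cell and tested by two-sided sign-flip permutation over cells with 100000 resamples (smallest p 1e-05), with Benjamini-Hochberg adjustment over 6 share comparisons, 6 segments and 3 OE comparisons. The chromosomes given as 9:22 and 22:9 were left out of the chromosome ends, and chromosome 8 holds no used bin. Bins were tested across the whole table with the exact Poisson-binomial test, threshold 0.05, checked on simulated data. P-values of the sign-flip test rest on the spread between cells of 1 clone. Those of the bin test take the contact share of each cell as given, as the chance of contact of every bin. Named stretches were the 8 longest at a contact frequency of at least 50% with the 3 longest of the distal part, and the 5 proximal and 3 distal longest at 0%. The regions and lists were chosen with earlier results of these data known. The planned gene lists were not used, since no hg19 annotation was given. Python 3.11.15, NumPy 2.4.6 and SciPy 1.17.1 were used.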

Additional observations from a re-analysis of the deposited data

How the results depend on the processing

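Of 179 recomputed values, 144 had the same direction and outcome of the test as reported or, for counts, stayed within 1.5 times. The proximal part stayed below the distal part (-12.1 to -4.63 points, adjusted p 1.5e-05 to 0.0286), below the other chromosomes (-10.5 to -7.91 points) and below chromosome 14 (-20.0 to -11.5 points), and the distal part above other ends (3.63 to 15.1 points, adjusted p 1.5e-05 to 0.027), under every alternative run. With any read counted, the distal part turned to 3.45 points above other chromosomes (adjusted p = 0.0485), the proximal part to 0.772 points above chromosome 13, the second proximal segment to 1.81 and the first distal segment to 1.76 points above other chromosomes, and the second distal segment passed at 5.13 points. Counts then were 30 proximal and 28 distal bins in at least 80% of cells, 25 and 1 in no cell, and 39 distal bins called below. With an OE limit of 0.5, proximal against chromosome 13 turned to 0.376 points, the first distal segment lost its call (-2.57 points), 6 proximal and 14 distal bins reached 80%, and 105 proximal bins were never in contact. With a limit of 2, the distal part passed at -3.28 points, the first and second proximal segments at -4.79 and -4.99, 39 proximal bins were called above, no (0) distal bin reached 80% and 66 were never in contact. Without the 8 cells of fewest reads the first distal segment was at -5.05 points without a call, and 2 proximal and 14 distal bins reached 80%. Without the shallow cells 2 proximal bins reached 80% and the OE difference of the parts lost its call (-0.177). After thinning to 40279 reads 1 proximal bin reached 80%, the first proximal segment passed (-6.95 points) and the first distal segment did not (-4.53). Without bins of low expected reads the first proximal segment passed (-10.7). Without bins at 0 in every cell, proximal against chromosome 13 turned to 0.0792 points, the OE difference of the parts lost its call (-0.156) and that of the distal part against other chromosomes gained one (-0.156). With autosomes only the first distal segment was at -4.64 points without a call. Without bins within 2 Mb of the ends the distal part turned to 2.20 points above other chromosomes. The cause was not tested for any of these. For the counts of bins, the values over all bins under the same alternatives are not given here. No paired analysis between groups was possible because all cells belong to 1 group, and the differences given are paired within cells. Depth is lowest in the 3 shallow cells, and expected reads are low in 16 of 18 bins of the first 3 Mb of the proximal part, in 47 of its other 376 bins and in 7 distal bins. Among the deeper cells the distal share also moved with reads (r = 0.492).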
